A study of Arabidopsis thaliana with 4 samples.

Results

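The loci described here are those of the deposited gene table that carry no annotated exon: rows with an exon length of 0 outside the mitochondrial genome, 1290 of 28642 loci. In the reference annotation they were RNA genes, with 623 tRNA loci, 394 loci of the class "other RNA", 177 miRNA precursors, 71 snoRNA loci, 13 snRNA loci, 8 pseudogenes and 4 rRNA loci. Their reads stood in the gene and intron columns of the table, since 0 of the 1290 loci held a read in an exon. Whole roots of 2 genotypes of Arabidopsis thaliana were sequenced as polyA RNA, with 2 biological replicates of each. WT was the accession Wassilewskija (Ws). The mutant atx1setm carried, in the atx1-1 insertion background of the same accession, an ATX1 protein whose catalytic SET domain had been inactivated by tyrosine-to-alanine substitutions. Seedlings of both genotypes were grown on vertical plates at 21 °C, and their age is given as 10 days post germination in the labels, with RNA extraction at 8 to 10 days. ATX1 is a trithorax-type methyltransferase of histone H3 lysine 4, and atx1setm was used to ask what its catalytic activity does in the root.

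RNA genes work without being translated. Primary miRNA transcripts are folded hairpins that DICER-LIKE1 cuts into a mature miRNA, which guides ARGONAUTE proteins to complementary mRNAs. Transcripts of the TAS loci are themselves cut by a miRNA, copied into double strands by RDR6 and diced into trans-acting siRNAs (tasiRNAs). snRNAs form the spliceosome, and snoRNAs guide the chemical modification of rRNA. Mature tRNAs, snoRNAs and most snRNAs have no poly(A) tail, whereas primary miRNA, TAS and many long non-coding transcripts are capped and polyadenylated. Many loci of the class "other RNA" lie antisense to protein-coding genes, and their function is mostly unknown.

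Gene reads per library ranged from 38973716 to 46957107, and the loci without exons held 68144 to 122650 of them (0.167 to 0.269%). The highest share belonged to atx1setm replicate 2, which stood apart from the other 3 libraries in several classes below. The ATX1 gene held 731 and 390 reads in Ws against 519 and 313 in atx1setm (log2 fold change −0.37, SE 0.33, adjusted p = 0.746), and these totals cannot show the substitutions. Root markers were present, with 1839 to 2624 reads of SCARECROW and 2986 to 5790 of CASP1 per library, and of 6 such markers the epidermal genes GL2 and WEREWOLF (MYB66) were lower in atx1setm at an unadjusted p under 0.05, as were 4.78% of all tested loci. Green shoot markers were at 2 to 8434 reads, and 0 of the 6 tested passed at that level.

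The mature miRNAs below are shown because their precursors held most precursor reads or because they cut TAS transcripts. They were read from the RefSeq annotation of TAIR10.1, with the seed (bases 2 to 8) in capitals.
miR414: uCAUCUUCaucaucaucguca
miR822-5p: uGCGGGAAgcauuugcacaug
miR824-5p: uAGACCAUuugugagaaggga
miR163: uUGAAGAGgacuuggaacuucgau
miR166b-3p: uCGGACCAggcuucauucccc
miR173-5p: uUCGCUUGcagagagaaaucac
miR390a-5p: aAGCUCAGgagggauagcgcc
miR828: uCUUGCUUaaaugaguauucca
The 8 seeds all differ. Among the tested precursors, miR166a-3p and miR166b-3p share the seed CGGACCA.

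The sites at which these miRNAs best pair with TAS transcripts are shown for loci of the tasiRNA list. They were searched for in the listed loci and did not define the list. Each is the window of the locus with the fewest unpaired positions, written as DNA on the transcript's strand, and capitals mark bases that pair with the miRNA by Watson-Crick rules.
TAS1A: GTGATTTtTCTCTaCAAGCGAA
TAS1B: GTGATTTtTCTCaaCAAGCGAA
TAS2: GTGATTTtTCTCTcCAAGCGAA
TAS3A: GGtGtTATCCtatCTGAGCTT
TAS4: TGGAATACTCATTTgAGCAAGA
The miR173 site of TAS1A, at chr2:11722081-11722102 on the minus strand, paired at 20 of 22 bases, against 19 in TAS1B. The miR828 site of TAS4, at chr3:9417809-9417830 on the minus strand, paired at 21 of 22 bases. The miR390 site of TAS3A, at chr3:5862099-5862119 on the plus strand, paired at 16 of 21 bases, and another window of TAS3A had as many unpaired positions.

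Short members are shown whole to give the kind of sequence a read must match. U1.5, an snRNA of the U1 family, lies at chr1:2538076-2538237 on the minus strand, and capitals mark the letters CTTACCT at the start of U1 that pair with 5′ splice sites. SNOR30, a snoRNA, lies at chr5:20795936-20796051 on the plus strand, and capitals mark the letters TGATGA and CTGA of the C and D boxes of this snoRNA class. AT1G15405, an RNA gene with no known role, lies at chr1:5297875-5298166 on the minus strand. A tRNA-Tyr row, AT1G56740, lies at chr1:21269122-21269158 on the plus strand, with the anticodon in capitals.
U1.5: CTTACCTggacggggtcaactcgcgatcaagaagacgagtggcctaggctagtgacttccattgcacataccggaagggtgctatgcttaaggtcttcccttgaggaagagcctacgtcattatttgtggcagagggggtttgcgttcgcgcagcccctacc
SNOR30: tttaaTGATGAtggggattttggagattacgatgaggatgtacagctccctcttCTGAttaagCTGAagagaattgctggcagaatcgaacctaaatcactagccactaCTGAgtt
AT1G15405: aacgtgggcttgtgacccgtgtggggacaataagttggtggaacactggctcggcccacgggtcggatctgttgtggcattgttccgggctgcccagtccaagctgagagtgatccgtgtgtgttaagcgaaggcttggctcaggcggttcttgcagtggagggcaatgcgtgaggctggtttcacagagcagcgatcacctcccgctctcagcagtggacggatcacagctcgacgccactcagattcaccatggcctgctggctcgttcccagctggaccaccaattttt
tRNA-Tyr: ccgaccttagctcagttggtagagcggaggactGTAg
Searched on both strands, with overlaps allowed, TGATGA was found in 61 of 71 snoRNA loci (85.9%) against 401 of all 1290 loci (31.1%), and CTGA in 70 snoRNA loci (98.6%) against 898 loci (69.6%). CTTACCT was found in 1 of 13 snRNA loci (7.69%) and in 64 of all loci (4.96%). The loci differ in length, so these shares are a description only.

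Of the 1290 loci, 488 held at least 1 read in the 4 libraries and 802 held none. A count of 0 allows up to 3 reads in a library, or 0.0639 to 0.0770 RPM (reads scaled to 1000000 gene reads of the library), and such floors cover counting error only. All 13 snRNA loci held a read, and the share was 81.7% for snoRNA, 77.4% for other RNA, 48.6% for miRNA precursors and 3.05% for tRNA (19 of 623). Median lengths were 793 bases for snRNA, 1228.5 for other RNA, 126 for miRNA precursors, 84 for snoRNA and 72 for tRNA. Of the 13 snRNA loci, 7 overlapped another locus, and these shares were not adjusted for length or overlap. A stricter limit of 10 reads in every library left 174 loci, of which 148 were other RNA.

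The counts used here are the table's unique gene reads, and most tRNA sequences recur in the genome. Of the 623 tRNA loci, 512 had an identical copy elsewhere among the loci, and all 623 carried 202 distinct sequences. No stretch of 50 bases, the length of the reads, occurred once in the genome in 529 tRNA loci, against 0 of 177 miRNA precursors and 2 of 71 snoRNA loci. Of these 529 rows, 83 are shorter than 50 bases and so hold no such stretch by length alone. Of the 94 tRNA loci that did have such a stretch, 15 held a read, so most of these were also without reads. Reads were also listed at 4 of the 529 tRNA loci without such a stretch, and at both such snoRNA loci, 8 loci over all classes. The most repeated sequence was the tRNA-Tyr row printed above, with 45 identical rows between chr1:21269122-21308423 with 0 reads. This row is 37 bases long whereas the RefSeq span of AT1G56740 is 85 bases, and the same held for all 83 rows under 50 bases, which RefSeq annotates with at least 50. All tRNA loci together held 78 reads.

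Overlap with other loci was the other property that went with missing reads. Of the 1290 loci, 341 shared at least 1 base with another locus, 281 of them with a locus on the other strand. All 145 loci that lay wholly inside another locus had 0 reads, among them 64 other RNA loci, 44 tRNA loci, 25 miRNA precursors and 10 snoRNA loci. Where 1 to 50 bases were free of any other locus, 12 of 26 loci held a read, and with more than 500 free bases 76 of 77 did. Loci with exons showed the same in part: 30 of 196 that lay wholly inside another such locus held a read, against 91.1% of all 27328. How the counting treated overlapping loci is not given in the sources used here, and its part in these 0 counts was not tested.

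**Figure D1:**
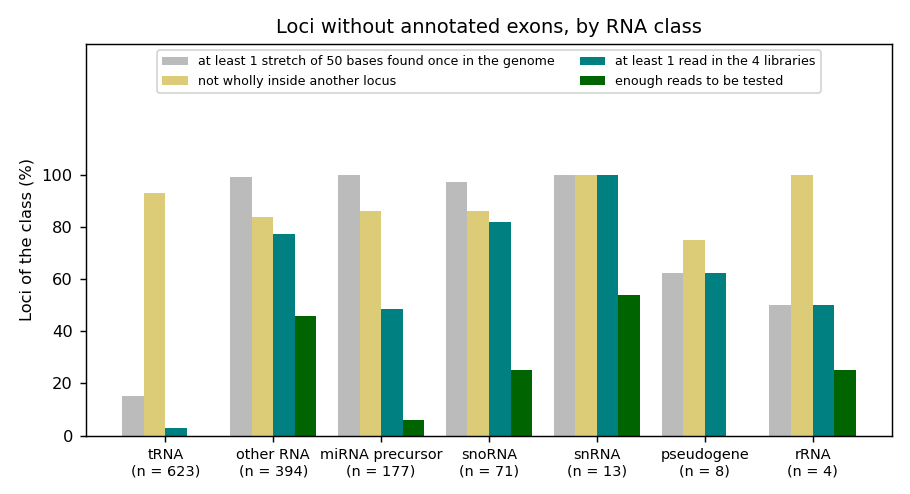
Share of the loci of each RNA class (vertical axis, %, with the number of loci under each class) that have a stretch of 50 bases found once in the genome, lie outside other loci, hold a read, or were tested. For tRNA 3.05% of the loci held a read, whereas for snRNA all 13 did.

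By class, the reads were dominated by other RNA. These loci held 1500.8 and 1534 RPM in Ws against 1492 and 2095 in atx1setm. The rRNA loci held 109 and 149 RPM in Ws against 131 and 487 in atx1setm, nearly all in the 18S rRNA locus AT3G41768. miRNA precursors were at 39.2 and 46.1 RPM in Ws against 43.99 and 54.9 in atx1setm. snoRNA loci held 12.4 and 11.7 RPM in Ws against 15.8 and 26.9 in atx1setm, with both atx1setm libraries above both Ws libraries. The tRNA loci, with 78 reads in all, had the same order, at 0.319 and 0.385 RPM in Ws against 0.554 and 0.527 in atx1setm. snRNA loci held 4.47 and 7.83 RPM in Ws against 7.68 and 26.7 in atx1setm. In each of these classes but tRNA the highest value was that of atx1setm replicate 2. This library exceeded atx1setm replicate 1 by 1.25-fold in miRNA precursors and 3.72-fold in rRNA. The ratio of the atx1setm mean to the Ws mean was 1.18 for other RNA, 1.16 for miRNA precursors, 1.77 for snoRNA, 2.79 for snRNA and 2.40 for rRNA. Without atx1setm replicate 2 it fell to 0.98 for other RNA, 1.03 for miRNA precursors, 1.31 for snoRNA, 1.25 for snRNA and 1.02 for rRNA, and without atx1setm replicate 1 it rose to 4.34 for snRNA and 3.78 for rRNA. No class passed an exact two-sided permutation test over the libraries (0.333 for snoRNA and tRNA, 0.667 to 1.0 for the other 4). The smallest p that 2 against 2 libraries allow is 0.333. RNA without a poly(A) tail is reduced by poly(A) selection, and the part of this step in the rRNA share of atx1setm replicate 2 was not tested.

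**Figure D2:**
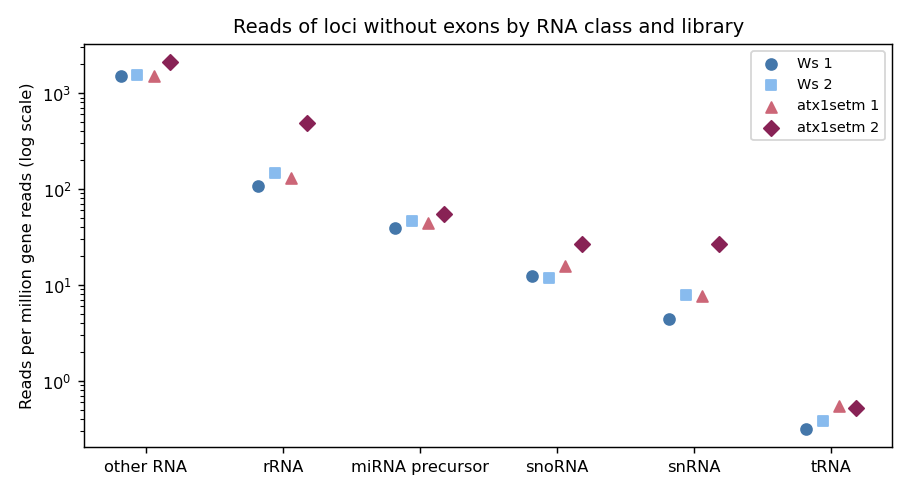
Reads of the loci without exons in RPM (vertical axis, reads per library scaled to 1000000 gene reads, log scale) in each RNA class and each of the 4 libraries (points; pseudogenes not drawn). Atx1setm replicate 2 is the highest library in every class but tRNA, with 487 RPM at rRNA loci against 109 to 149 in the other libraries.

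The 10 loci with the highest level, in RPKM (RPM divided by the length of the locus in kilobases), were mostly RNA genes without a known role. AT1G10682 led with a mean level of 246, followed by AT2G05914 (138), AT2G15555 (131), the 18S rRNA locus AT3G41768 (120.95) and AT5G07322 (117.4). AT3G27884 (90.8), AT4G36648 (85.9), AT1G11185 (61.2), AT3G57157 (57.4) and the U1 snRNA locus U1.5 (50.1) completed the list. Every stretch of 50 bases occurred once in the genome in 0 of 4 rRNA loci and 2 of 13 snRNA loci. Among other RNA this held for 306 of 394 loci, and neither RPM nor RPKM was corrected for it. AT1G10682 held 5006 and 4367 reads in Ws against 4105 and 7316 in atx1setm, so the Ws values lay between those of atx1setm. U1.5 was at 15.6 and 32.3 RPKM in Ws against 32.5 and 119.9 in atx1setm (log2 fold change 1.86, SE 0.82, adjusted p = 0.572), and its log2 fold change was 0.37 without atx1setm replicate 2, 2.59 without replicate 1 and 1.04 with the length offset described below. AT3G27884 was the only 1 of the 10 with a fitted value below 0 (−0.51, SE 0.38), and its reads were 11255 and 9084 in Ws against 5147 and 8259 in atx1setm. All 10 missed an unadjusted p of 0.05. Of all reads at loci without exons, 61.9% fell on the 10 loci with most reads.

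To ask which of these loci differ between the genotypes, the reads of all loci were fitted together by the quasi-likelihood test of edgeR, in which 217 loci without exons had enough reads to be tested: 180 other RNA, 18 snoRNA, 11 miRNA precursors, 7 snRNA and 1 rRNA. After Benjamini-Hochberg adjustment over all 21083 tested loci (adjusted p below are of this test unless another is named), 0 were higher (0.0%) and 0 lower (0.0%) at an adjusted p under 0.05, with or without exons. At an unadjusted p under 0.05, 12 of the 217 were higher in atx1setm (5.53%, against a background of 4.93% of all tested loci) and 4 lower (1.84%, against 4.78%). The quasi-likelihood test did not use replicate numbers, although deviations from the group means correlated at 0.706 between same-numbered libraries over all tested loci. Counts with a replicate block are given at the end. The exact test of edgeR called 3 higher and 2 lower at an adjusted p under 0.05, against backgrounds of 1.68% and 2.21%. DESeq2 called 2 higher and 1 lower, against 1.45% and 1.73%. The shares called higher were thus near the background. The shares called lower were below it, but they rest on 4, 2 and 1 loci from the same 4 libraries. Their difference from the background was not tested.

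As a whole the 217 loci leaned upwards, with a median log2 fold change of 0.37 and 74.2% above 0, against −0.01 and 49.2% over all tested loci. The median was 1.42 for the 7 snRNA loci, 0.94 for the 18 snoRNA loci, 0.37 for the 11 miRNA precursors and 0.33 for the 180 other RNA loci. Lengths in the snRNA class ran from 162 to 916 bases, and 7 of its 13 loci overlapped another locus. Which transcripts their reads came from was not tested. Without atx1setm replicate 2 the median of the 217 fell to 0.15 (61.4% above 0), that of snRNA to 0.12 and that of snoRNA to 0.47, whereas without atx1setm replicate 1 the median of the 217 was 0.67. In 128 of the 217 loci atx1setm replicate 2 was the highest of the 4 libraries, and in 42 it was the lowest. These counts were not set beside those of all tested loci. Both atx1setm libraries lay above both Ws libraries at 27.6% of the 217 loci and below them at 8.29%, against 19.5% and 19.9% of all tested loci.

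The length of a locus went with this replicate difference. The median log2 ratio of atx1setm replicate 2 to replicate 1 was 1.07 in the 44 loci without exons of up to 500 bases, 1.11 in the 61 of more than 500 and up to 1000 bases, and −0.48 in the 31 of more than 2000 and up to 3000 bases. In loci with exons it fell from 0.65 to −0.39 over the same classes, and to −0.93 above 3000 bases of exon. The ratio of Ws replicate 2 to replicate 1 ran from 0.15 to −0.33 over those classes in loci without exons. With a length-dependent offset for each library, the median log2 fold change of the 217 was 0.35, that of snRNA 1.04, that of snoRNA 0.17 and that of miRNA precursors −0.08. What lies behind this trend was not tested.

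**Figure D3:**
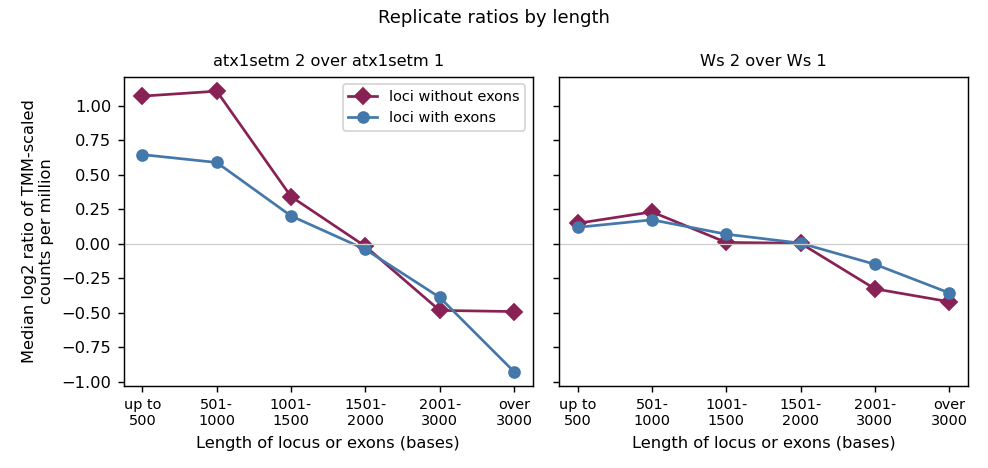
Median log2 ratio of TMM-scaled CPM between replicates (vertical axis) by length in bases (horizontal axis; length of the locus, or of its exons for loci with exons), for atx1setm in the left panel and Ws in the right. In atx1setm the median falls from 1.07 to −0.49 in loci without exons and from 0.65 to −0.93 in loci with exons.

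Among the loci that were higher in atx1setm at an unadjusted p under 0.05, 11 were other RNA and 1 was a snoRNA. AT1G15405, printed above, held 131 and 179 reads in Ws against 424 and 1081 in atx1setm, or 3.59 ± 1.36 and 18.4 ± 13.3 CPM (counts scaled to 1000000 reads with TMM factors, mean ± SD, 2 libraries each). Its log2 fold change was 2.36 (SE 0.64, adjusted p = 0.325 by the quasi-likelihood test and 0.0179 by the exact test of edgeR). Both atx1setm libraries exceeded both Ws libraries, and atx1setm replicate 2 was the higher of them. AT1G67105 had a similar order, with 358 and 567 reads in Ws against 954 and 3238 in atx1setm (2.26, SE 0.76, adjusted p = 0.441), with an adjusted p of 0.00657 by DESeq2 and 0.0878 by the exact test. Without atx1setm replicate 2 the log2 fold change fell to 0.92 at AT1G67105 and to 1.34 at AT1G15405. AT2G01422 was near absent in Ws, with 2 reads in each library, and held 12 and 41 in atx1setm (adjusted p = 0.303; exact test adjusted p = 0.0140). The ratio of its pooled reads, scaled to library size, was 13.7, with a 95% exact binomial interval of 5.05 to 52.2 that covers counting error only. AT5G15022 held 10 and 7 reads in Ws against 30 and 45 in atx1setm (2.21, SE 0.52, adjusted p = 0.264; exact test adjusted p = 0.0147).

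In AT4G01533, by contrast, the replicates lay close together, with 37 and 24 reads in Ws against 85 and 69 in atx1setm, or 0.676 ± 0.0930 against 1.78 ± 0.0203 CPM (mean ± SD). Its log2 fold change was 1.39 (SE 0.36, adjusted p = 0.299). SNOR30, whose boxes are printed above, held 12 and 14 reads in Ws against 32 and 58 in atx1setm (1.85, SE 0.57, adjusted p = 0.391), and with the length offset its value was 1.12. The remaining higher loci were AT4G10507, AT3G61118, AT2G32795, AT3G61198 and, named after their values were seen, AT2G05518 and AT2G06002, with log2 fold changes from 1.12 to 1.98. At all 12 loci both atx1setm libraries lay above both Ws libraries. The choice of loci by p favours such separation, so it adds no support of its own.

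The exact-test calls of the higher loci depended on single libraries. Without Ws replicate 1, the adjusted p of AT1G15405 was 0.284, that of AT2G01422 0.298 and that of AT5G15022 1.0. Without atx1setm replicate 2, it was 0.0446 for AT1G15405, 0.153 for AT2G01422 and 0.145 for AT5G15022. Without Ws replicate 2, AT1G15405 had 0.0229, AT2G01422 0.168 and AT5G15022 0.622. Without atx1setm replicate 1 all 3 were called, with 1.56e-11, 2.21e-06 and 0.00120 in the same order.

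**Figure D4:**
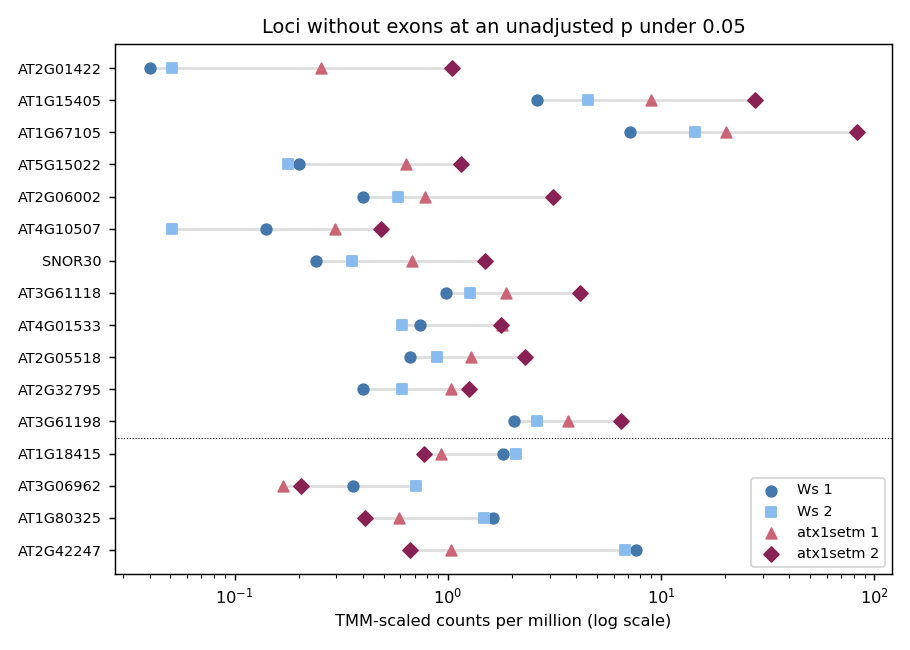
TMM-scaled CPM (horizontal axis, log scale) of the 16 loci without exons at an unadjusted p under 0.05, with the 4 libraries as points. Above the dotted line both atx1setm libraries exceed both Ws libraries (12 loci), and below it both lie under them (4 loci). The choice of these loci by p favours such separation.

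The 4 loci that were lower in atx1setm were all other RNA. AT2G42247, at chr2:17599370-17601825, had the smallest p of all loci without exons. It held 380 and 266 reads in Ws against 49 and 26 in atx1setm, or 7.19 ± 0.604 and 0.852 ± 0.262 CPM (mean ± SD), 8.44-fold lower in atx1setm. Its log2 fold change was −3.07 (SE 0.37, adjusted p = 0.0968 by the quasi-likelihood test, 1.67e-08 by the exact test of edgeR and 5.0e-08 by DESeq2), and over all alternatives its adjusted p was at most 0.145. The exact test called it whichever library was left out, with an adjusted p of at most 0.00730. AT1G80325 held 81 and 58 reads in Ws against 28 and 16 in atx1setm (−1.62, SE 0.40, adjusted p = 0.283), with an exact test adjusted p of 0.0337 that rose to 1.0 without Ws replicate 1, 0.580 without Ws replicate 2 and 0.283 without atx1setm replicate 2, and was 0.0246 without atx1setm replicate 1. AT1G18415 held 91 and 82 reads in Ws against 44 and 30 in atx1setm (−1.19, SE 0.35, adjusted p = 0.37). AT3G06962, a locus of 210 bases, held 18 and 28 reads in Ws and 8 in each atx1setm library (−1.50, SE 0.55, adjusted p = 0.483). At these 4 loci no atx1setm library reached the level of a Ws library, which the choice by p favours here as well.

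The next in order, which missed an unadjusted p of 0.05, were AT5G15845, AT4G23205, the miRNA precursor MIR163, AT3G52072, AT1G26208 and AT1G77138. Their log2 fold changes ran from −0.61 to −1.22, with adjusted p from 0.629 to 0.715.

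Of the 4 lower loci, 3 overlapped on the opposite strand a gene that was itself lower. AT2G42247 shared 1751 of its 2456 bases with CYP712A1, a cytochrome P450 gene, which held 140 and 103 reads in Ws against 1 and 3 in atx1setm (adjusted p = 0.0963; exact test adjusted p = 9.88e-14). For CYP712A1 the scaled pooled reads were 58.7 times higher in Ws, with a counting interval of 22.6 to 217. Its other neighbour AT2G42240, an RNA-binding protein gene on the same strand that overlaps it by 235 bases, held 484 and 317 reads in Ws against 428 and 363 in atx1setm (0.05, adjusted p = 0.952). AT1G80325 shared 1115 of 1470 bases with AT1G80320, a gene of the 2-oxoglutarate and Fe(II)-dependent oxygenase superfamily with 70 and 34 reads in Ws against 5 and 2 in atx1setm (−3.78, SE 0.59, adjusted p = 0.135). AT1G18415 shared 2333 of 2567 bases with AT1G18420, of the aluminum-activated malate transporter family, with 139 and 95 reads in Ws against 37 and 25 in atx1setm (−1.86, SE 0.36, adjusted p = 0.185). The bases free of any other locus were 470, 341 and 234 in these 3 loci. The sources used here do not say whether the libraries were stranded, and reads from the opposing strands cannot be told apart. AT3G06962 overlapped no other locus.

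Such joint falls were seen in 3 of the 54 opposite-strand pairs in which both loci were tested. Across the 54 pairs, Pearson's r of the log2 fold changes was 0.664 and Spearman's rho 0.213. Without the 3 pairs whose gene was lowest, r was 0.190. These are the 3 joint falls themselves, so the lower r follows from leaving them out. The correlations describe pairs from the same 4 libraries, which are not independent. In 7 pairs the gene was lower at an unadjusted p under 0.05, and the locus without exons was below 0 in 5 and passed the same test in 3. Over all 217 tested loci without exons, 56 lay below 0 and 4 passed as lower. In the other 4 of the 7 pairs (chosen after their values were seen) the loci without exons lay at −0.13 opposite GDPD5, 0.30 opposite UGT74D1, 0.34 opposite AT3G03700 and −0.03 opposite the ferritin gene FER1. In 2 pairs the gene was higher at an unadjusted p under 0.05. MYB72, a regulator of iron-deficiency responses, was at 3.15 (SE 0.92, adjusted p = 0.365) with AT1G56165 at 1.05. MYB72 held only 3 and 0 reads in Ws against 13 and 14 in atx1setm. The expansin gene EXPA20 was at 1.44 (SE 0.54, adjusted p = 0.495) with AT4G38215 at −0.43. AT5G15022, among the higher loci, lay opposite AT5G15030, a Sin3-like gene that did not pass the test (0.34, adjusted p = 0.746). The 81 tested loci that overlapped another locus had a median log2 fold change of 0.21, and the 136 that did not had 0.51. These sets were not matched for length or class. By length, the median was 0.86 at up to 500 bases and −0.005 at more than 2000 and up to 3000. The part of length in the difference between the sets was not tested.

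**Figure D5:**
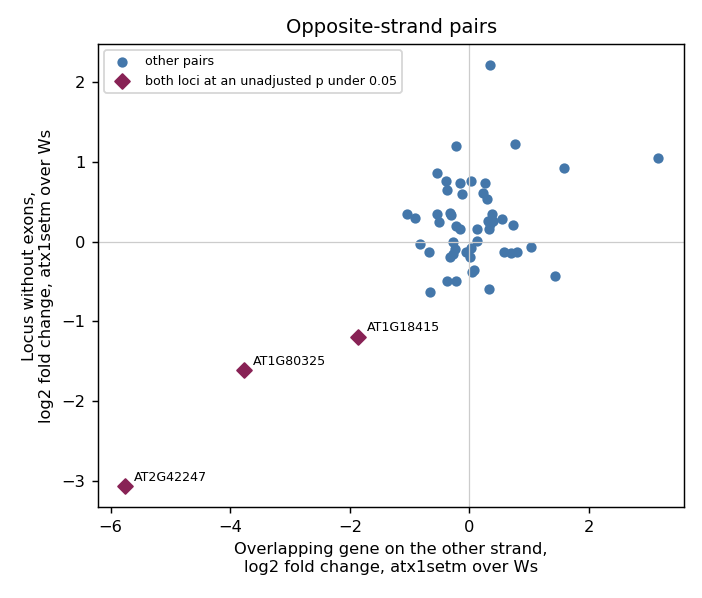
Log2 fold change, atx1setm over Ws, of each tested locus without exons (vertical axis) against that of the gene it overlaps on the opposite strand (horizontal axis), for 54 pairs. The 3 pairs in which both passed an unadjusted p of 0.05 lie at the lower left, down to −3.07 and −5.77. The other pairs lie on both sides of 0, up to 3.15 for the gene and 2.21 for the locus without exons.

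The TAS loci were examined as a group because their transcripts are substrates of the small RNA pathway. Of the 8 loci, 6 were tested and 0 passed an unadjusted p of 0.05, with a median log2 fold change of 0.11. TAS1A, one of the miR173-dependent loci, held 304 and 241 reads in Ws against 262 and 234 in atx1setm (−0.08, SE 0.26). TAS1B was at 2.43 and 2.21 CPM against 2.37 and 2.49 (0.07, SE 0.31), TAS1C held 111 and 67 against 73 and 59 reads (−0.36, SE 0.34), and TAS2 185 and 96 against 190 and 127 (0.24, SE 0.36). Scaled to library size, the genotypes overlapped at TAS1B and TAS2, and at TAS1A and TAS1C both Ws libraries were slightly higher. TAS3A (TAS3), the source of the tasiRNAs that target auxin response factors, held 690 and 841 reads in Ws against 930 and 2417 in atx1setm (1.21, SE 0.60, adjusted p = 0.627), and without atx1setm replicate 2 its value was 0.18. TAS4 (AT3G25795), whose tasiRNAs target MYB genes, held 53 and 98 against 64 and 102 (0.16, SE 0.58). TAS3B (TAS3b) held reads only in atx1setm replicate 2, which had 8, and TAS3C (TASIR-ARF) held 1 to 4 reads per library.

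The triggers of tasiRNA production could hardly be seen as precursors. MIR173 held 0 to 1 reads per library, MIR390a and MIR390b 0 to 1, and MIR828 0 to 4. More widely, 86 of 177 precursors from 55 of 105 families held a read, and 4 loci held 85.8% of all precursor reads. MIR414 led with 806 and 831 reads in Ws against 1129 and 1385 in atx1setm (0.67, adjusted p = 0.593). MIR822 held 417 and 413 in Ws against 240 and 555 in atx1setm, and MIR824, whose miRNA targets the MADS-box gene AGL16, held 230 and 132 against 193 and 83. MIR163, whose miRNA targets methyltransferase genes, had the lowest fold change of the tested precursors, with 135 and 179 reads in Ws against 73 and 104 in atx1setm (−0.78, SE 0.45, adjusted p = 0.679). None of the 11 tested precursors passed an unadjusted p of 0.05, 8 were above 0 and 3 below. MIR166a and MIR166b, which give the same mature sequence, held 3 and 6 against 11 and 21 reads, and 59 and 46 against 42 and 39.

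None of the listed genes that make or use small RNAs passed the test. Of 24 such genes, all of them tested, 0 passed an unadjusted p of 0.05 in either direction, and 21 lay below 0 (87.5%, against 50.8% of all tested loci), with a median of −0.16. They are long genes, with a median exon length of 3142 bases against 1511 over all tested loci, and with the length offset 9 lay below 0 and the median was 0.07. The nearest was AGO7, the ARGONAUTE that binds miR390, with 475 and 237 reads in Ws against 222 and 138 in atx1setm (−0.92, SE 0.36, adjusted p = 0.517). AGO1, the main effector of miRNAs, held 12562 and 9820 against 10128 and 6807 (−0.37, SE 0.25), and DCL1 1867 and 985 against 1601 and 411 (−0.49, SE 0.59).

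Of 79 listed targets of miRNAs and tasiRNAs, 73 were tested, of which 2 passed an unadjusted p of 0.05 as higher and 10 as lower, with a median of 0.03, where 4.93% and 4.78% of all tested loci passed in these directions. The 10 lower genes were 4 targets of miR319, 3 of miR396, 2 of miR156 and 1 of miR397. All 5 miR319 targets, the CIN-type TCP genes that limit cell proliferation, were below 0 and 4 passed, with TCP2 at 741 and 546 reads in Ws against 47 and 32 in atx1setm (−3.98, SE 0.30, adjusted p = 0.0839) and TCP24 at 1342 and 760 against 148 and 61 (−3.29, SE 0.45, adjusted p = 0.117). Of the precursors of miR319, MIR319b held 3 and 0 reads in Ws against 15 and 4 in atx1setm, MIR319a 1 read in Ws replicate 2 and MIR319c none, too few to compare. Among 6 tested miR396 targets, the growth-regulating factor genes, 3 were lower, led by GRF4 with 1114 and 939 reads in Ws against 278 and 340 in atx1setm (−1.66, SE 0.29, adjusted p = 0.164) and GRF8 with 64 and 40 against 22 and 14 (−1.47, SE 0.41, adjusted p = 0.333). MIR396a held 0 to 3 reads per library and MIR396b none. Of 6 tested miR156 targets, SPL15 (−1.56, SE 0.32, adjusted p = 0.206) and SPL2 (−1.07, SE 0.32, adjusted p = 0.372) were lower. The laccase gene LAC2, a target of miR397, was lower as well (−1.31, SE 0.24, adjusted p = 0.174). The higher targets were NF-YA10 (NFYA10) of miR169 (1.42, SE 0.40, adjusted p = 0.34) and NLA of miR827 (0.71, SE 0.26, adjusted p = 0.477). The 3 tasiRNA targets ETT (0.64), ARF2 (−0.64) and ARF4 did not pass.

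The non-coding phosphate-starvation RNAs IPS1 and AT4 (AT5G03545), which sequester miR399, have exons in the table and are therefore not among the 1290 loci. IPS1 held 314 and 372 reads in Ws against 1018 and 2024 in atx1setm (2.22, SE 0.51, adjusted p = 0.258; exact test adjusted p = 0.00414). AT4 held 2099 and 2429 against 3402 and 9417 (1.59, SE 0.62, adjusted p = 0.511). For both, atx1setm replicate 2 was again the highest library. The miR399 precursors held 0 to 1 reads per library, and the miR399 target PHO2 did not pass the test (0.10, SE 0.34).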

How the data were processed

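Whole-root polyA RNA of 2 Ws and 2 atx1setm samples was sequenced for 50 cycles, single-end. The authors used CLC Genomics Workbench to map the reads to TAIR10 and to count them for each gene. The deposited table holds raw counts in 87 columns. The counts used here are the unique gene reads, since the authors' exon counts are 0 at these loci, and 53 other per-sample columns were not used. The authors' p-values and fold changes from their EDGE comparison were not used. For strandedness and mapping settings: not given in the sources used here.

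All 28642 loci, 24 mitochondrial loci without exons included, were fitted together. Low counts were removed by filterByExpr, libraries were scaled by TMM (factors 0.856 to 1.09), and the genotype comparison was the quasi-likelihood test (legacy fit) of edgeR 4.0.16 in R 4.3.3, two-sided, with Benjamini-Hochberg adjustment. The biological coefficient of variation was 0.304. The SE is the log2 fold change divided by the root of F. The exact test of edgeR and DESeq2 1.42.0 were alternatives, and the tests were checked on simulated data. Replicates are separate samples in the labels, and p-values measure only the spread between 2 of them.

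Classes, symbols and sequences come from RefSeq TAIR10.1, which matched all 1290 loci, with equal starts for 1038 and equal ends for 987. Coordinates are those of the table, 1-based. A stretch of 50 bases was called unique when it occurred once in that genome on either strand.

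Members and lists were chosen with earlier results of these data known. Named members were the TAS loci, the 10 highest in RPKM of gene reads, and the 10 higher and 10 lower tested loci with the smallest p. Other loci named were up to 2 per list by p and those overlapping a named member, while further names were picked with their values in view. Alternatives added after seeing the data were the exact test with each library left out and on library totals, length offsets, and class shares with each library left out.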

Additional observations from a re-analysis of the deposited data

How the results depend on the processing

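Counts of calls moved with the test and with single libraries, and the cause was not tested. At an unadjusted p under 0.05, the 12 higher loci without exons became 23 by the exact test, 19 by DESeq2, 20 without a filter on low counts and 10 to 96 with a replicate left out. The 4 lower loci became 1 to 17 with a replicate left out. At an adjusted p under 0.05, the 0 higher became 3 by the exact test, 2 by DESeq2 and 0 to 61 with a replicate left out, and the 0 lower became 2, 1 and 1 to 6, and 1 (AT2G42247) with length offsets. Both highest counts came without atx1setm replicate 1. The exact test's 3 higher and 2 lower became 0 to 68 and 1 to 6 with a replicate left out, and the 2 lower became 1 on library totals. Among members that overlap no other locus, 11 were higher and 1 lower, and the other 1 higher and 3 lower members overlapped another locus. Members wholly inside another locus had 0 reads, were not tested and so could not be called. With at least 10 reads in every library 174 of the 488 loci remained.

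The sample titles give same-numbered libraries only a shared replicate number. Their deviations from the group means nevertheless correlated at 0.706 over all tested loci and 0.659 over loci without exons. With a replicate block, 70 higher and 13 lower loci passed an unadjusted p of 0.05 and 47 and 5 an adjusted p of 0.05. With it, 4 small RNA pathway genes were lower, and 10 targets were higher and 17 lower. Shares over all tested loci are given above only for the main test and, at an adjusted p under 0.05, the exact test and DESeq2. The counts under other settings have no such background and are not a result about these loci.

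Small RNA pathway genes, 0 in either direction, became 1 higher with length offsets, 1 lower by the exact test, by DESeq2 and without a filter, and 0 to 1 higher and 0 to 9 lower with a replicate left out. The 2 higher targets became 1 by DESeq2, 1 on library totals without TMM, 5 with length offsets and 0 to 8 with a replicate left out, and the 10 lower became 6 to 16.

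Some log2 fold changes near 0 changed sign. TAS1B was −0.0302 on library totals, −0.0306 by the exact test on them and −0.18 with length offsets, which also turned AT1G10682 (−0.13), AT5G07322 (−0.22), AT1G11185 (−0.22) and ATX1 (0.047). With a replicate left out, the ranges were −0.010 to 0.57 for TAS2, −0.37 to 0.91 for TAS4, −0.27 to 0.83 for AT1G10682, −0.16 to 1.096 for AT2G15555, −0.043 to 2.19 for AT3G41768, −0.37 to 0.78 for AT5G07322, −0.041 to 0.26 for AT4G36648 and −0.42 to 0.94 for AT1G11185. Total gene reads gave identical values. With 1 library left in a genotype, it was assumed to vary like the libraries of the other.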
